A study of Mus musculus with 3 samples.

Results

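The fibroblast growth factor (FGF) receptors and the FGF ligands best known from skeletal tissue were examined in mandibular condyles of mice lacking 1 or both alleles of Dspp, the gene of dentin sialophosphoprotein. The members were the rows of the expression table whose symbol was Fgfr1, Fgfr2, Fgfr3, Fgfr4, Fgf1, Fgf2, Fgf7, Fgf9 or Fgf18, which are 4 receptors and 5 ligands and 9 of 26970 genes. They were taken by symbol, with earlier results of these data known. RNA was sequenced from animals aged 4 months that were WT, Dspp+/- (heterozygous) or Dspp-/- (null), 1 library for each genotype. The mutants carry a global Dspp knockout on a C57BL/6 background, and Dspp+/- mice were bred from Dspp-/- and C57BL/6 WT mice. Cartilage and subchondral bone were kept together, so each library mixes the RNA of many cell types, with skeletal muscle among them. Tissue of 3 animals was pooled for WT and likewise for Dspp+/-, while the number of animals behind Dspp-/- and the sex of all animals are not given in the sources used here.

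With no replicates there was no test, and each difference below is one between single libraries, both mutants being set against the same WT library. Values are FPKM, fragments normalised to gene length and to library depth, and the depth recovered from them was 20241576 to 23613621 fragments per library. A fold is the plain ratio of 2 FPKM values, its 95% Clopper-Pearson interval covers counting error only, and a log2 ratio is that of FPKM + 1, which understates differences of low genes. Comparison was limited to the 13026 genes whose mean reached 1 FPKM, and a gene was counted as lower or higher from 2-fold on the log2(FPKM + 1) scale. The WT library stood apart from both mutants in more than the FGF genes. All 10 erythroid and all 10 neutrophil markers were at least 2-fold higher in both mutant libraries. Of all genes compared, 4.88% were so in Dspp+/- and 4.05% in Dspp-/-. The mitochondrial share of all FPKM was 25.0% in WT and 36.9% and 37.3% in the heterozygous and null libraries. Xist, the RNA of the inactive X chromosome, was at 0.00551, 28.5 and 26.5 FPKM in WT, Dspp+/- and Dspp-/-. Ddx3y, a gene of the Y chromosome, was at 22.5, 11.1 and 15.1 FPKM, so both mutant libraries held male RNA beside that of cells with Xist. Sex, cell makeup and genotype cannot be told apart in these libraries.

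FGF ligands are secreted proteins that bind receptor tyrosine kinases on the cell surface together with heparan sulfate, and the receptors signal through the adaptor Frs2 to the Ras and MAP kinase cascade. In cartilage, Fgfr3 is known as a brake on the proliferation of growth plate chondrocytes, whereas Fgfr1 and Fgfr2 act in the osteoblast lineage, and Fgf9 and Fgf18 are ligands of the developing skeleton. Splicing of Fgfr1, Fgfr2 and Fgfr3 gives forms with different ligand preferences, and values per gene do not tell these forms apart.

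The 3 receptor genes expressed at more than a trace, Fgfr1, Fgfr2 and Fgfr3, were lower in both mutant libraries than in WT. Of the ligands, Fgf1 was also lower in both, Fgf2 and Fgf7 were higher in both, and Fgf9 was lower in Dspp-/-. In Dspp+/- the fold of Fgf9, 1.18 (0.935 to 1.49), had an interval that spans 1. In a bulk library, fewer cells of a type and less RNA per cell cannot be told apart. Fgfr1 was the sole member past 2-fold, in Dspp+/-.

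Fgfr1 (ENSMUSG00000031565, chromosome 8, plus strand, 26003670 to 26065734) was the most abundant member in all 3 libraries. It was at 64.6, 31.0 and 38.7 FPKM in WT, Dspp+/- and Dspp-/-, respectively, from 12907, 7237 and 8495 fragments. Among all genes of the table it stood at rank 491 in WT, 1154 in the heterozygous and 886 in the null library. The WT value was the highest, and Dspp+/- the lowest. The fold against WT was 0.481 (95% interval 0.467 to 0.495) for the heterozygous and 0.599 (0.582 to 0.615) for the null library. Between the mutants, Fgfr1 was 1.25-fold higher (1.21 to 1.29) in Dspp-/-.

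Fgfr2 (ENSMUSG00000030849, chromosome 7, minus strand, 129764181 to 132725079), whose splice forms serve epithelial and mesenchymal cells, kept the same order of libraries. It was at 20.8 FPKM in WT, 11.2 in the heterozygous and 14.6 in the null library. The fold against WT was 0.539 (0.514 to 0.566) and 0.700 (0.669 to 0.732) in the heterozygous and null libraries. As for Fgfr1, the value in Dspp-/- lay between the other two, 1.30-fold (1.23 to 1.37) above Dspp+/-. The range given for the gene in the table spans 2960899 bases, and 3.04% of its annotated exon bases lie in exons of Ctbp2 on the same strand, a gene at 4.70, 4.21 and 4.00 FPKM.

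Fgfr3 (ENSMUSG00000054252, chromosome 5, plus strand, 33879018 to 33894412) did not share that order. It was at 11.6, 5.89 and 5.86 FPKM in WT, Dspp+/- and Dspp-/-, respectively, so both mutant libraries stood at about the same level. The fold was 0.508 (0.469 to 0.550) for the heterozygous and 0.505 (0.466 to 0.548) for the null library. The ratio of Dspp-/- to Dspp+/- was 0.995 (0.909 to 1.09), an interval that leaves out the mutant-to-mutant ratios of Fgfr1 and Fgfr2. On the other strand, 13.9% of the exon bases of Fgfr3 overlap G630022F23Rik, which stayed at or below 0.0545 FPKM in every library.

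Fgfr4 (ENSMUSG00000005320, chromosome 13, plus strand, 55300453 to 55316572), the receptor best known from liver and muscle, was near the limit of measurement. It was at 0.600 FPKM in WT, 0.945 in the heterozygous and 0.875 in the null library, from 43, 79 and 69 fragments. Its mean of 0.807 FPKM was under the filter, so it is in none of the 2-fold counts or medians. The fold of 1.57 (1.07 to 2.34) and 1.46 (0.983 to 2.19) in the heterozygous and null libraries had the widest intervals among the receptors.

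**Figure D1:**
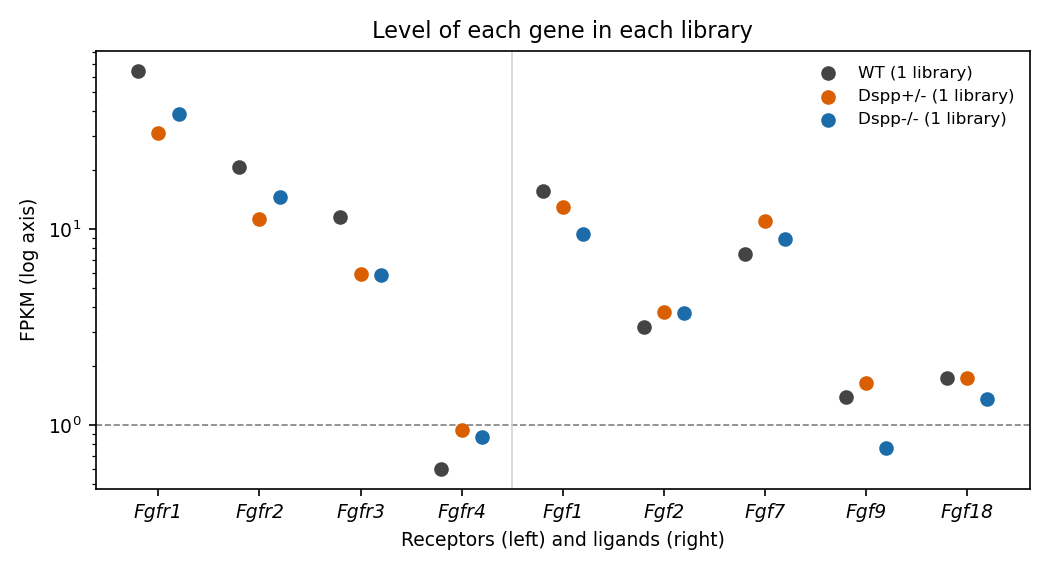
Level in FPKM (log axis) of the 4 receptors and 5 ligands, 1 point per library, with a dashed line at 1 FPKM. Fgfr1, Fgfr2 and Fgfr3 have their highest point in WT, Fgf7 has its lowest there, and Fgfr4 stays under the line in all 3 libraries.

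Promoter windows are shown for Fgfr2 and Fgfr3, which were lower in both mutant libraries, and for Fgf7, the ligand with the largest higher ratio, so that their base composition can be set side by side. The windows are those of RefSeq on GRCm38.p6, from 250 bases before to 50 bases after a start, and 3 of the 4 genes looked up were matched. No window is shown for Fgfr1. The positions given with each gene above and below are those of the authors' table, whose build is not named and differs from GRCm38, and are not to be combined with these. Capitals mark the GC box GGGCGG on either strand, so that CCGCCC is the same motif read from the other strand. The windows are, 5′ to 3′ on the strand of the gene, chr5:33721474-33721773 (plus) and chr5:33722056-33722355 (plus) for Fgfr3, chr7:130266759-130267058 (minus) for Fgfr2 and chr2:126034408-126034707 (plus) for Fgf7.
Fgfr3, upstream window: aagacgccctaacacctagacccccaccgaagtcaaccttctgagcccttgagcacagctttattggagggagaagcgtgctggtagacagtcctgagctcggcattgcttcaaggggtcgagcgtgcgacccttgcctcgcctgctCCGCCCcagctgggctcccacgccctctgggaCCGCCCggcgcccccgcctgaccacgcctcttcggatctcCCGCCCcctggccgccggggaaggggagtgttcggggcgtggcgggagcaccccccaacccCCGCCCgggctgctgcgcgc
Fgfr3, downstream window: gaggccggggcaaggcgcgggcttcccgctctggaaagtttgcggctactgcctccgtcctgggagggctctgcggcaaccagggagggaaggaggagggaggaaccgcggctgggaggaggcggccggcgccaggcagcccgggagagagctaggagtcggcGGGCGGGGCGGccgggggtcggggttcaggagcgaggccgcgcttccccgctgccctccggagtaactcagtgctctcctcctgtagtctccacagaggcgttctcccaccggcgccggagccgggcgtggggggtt
Fgfr2: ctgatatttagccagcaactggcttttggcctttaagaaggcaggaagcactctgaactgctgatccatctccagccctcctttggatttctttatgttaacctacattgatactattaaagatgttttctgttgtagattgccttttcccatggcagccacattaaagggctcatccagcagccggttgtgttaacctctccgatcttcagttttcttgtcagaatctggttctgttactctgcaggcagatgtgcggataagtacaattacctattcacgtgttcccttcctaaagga
Fgf7: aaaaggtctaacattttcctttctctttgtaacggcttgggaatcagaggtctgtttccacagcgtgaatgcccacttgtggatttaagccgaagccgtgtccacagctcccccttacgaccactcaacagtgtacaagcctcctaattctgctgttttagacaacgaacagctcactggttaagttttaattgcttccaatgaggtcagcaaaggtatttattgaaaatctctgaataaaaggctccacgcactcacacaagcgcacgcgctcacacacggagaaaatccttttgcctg

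The Fgfr3 windows held 69.7% and 73.0% G and C, with 4 GC boxes in the upstream window and 2, overlapping by 1 base, in the downstream one. The windows of Fgfr2, at 43.7%, and Fgf7, at 45.7%, held none. The median over all 32851 windows was 52.7%, and 35.7% of them held a GC box. Neither TATAAA, the TATA box, present in 13.6% of all windows, nor TGTGGT, the core bound by RUNX factors, present in 16.8%, was found on either strand in any of the 4 windows. Fgfr2 and Fgfr3, both lower in the mutants, were thus on opposite sides of that median, and these matches describe letters, not binding.

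Summed over the 4 receptors, the level was 97.6, 49.1 and 60.0 FPKM in WT, Dspp+/- and Dspp-/-, respectively. The makeup of that sum moved less than its size. Fgfr1 gave 66.1% of it in WT, 63.2% in the heterozygous and 64.4% in the null library, and Fgfr2 gave 21.4%, 22.9% and 24.3%. Fgfr3 held 11.9% and 12.0% in WT and Dspp+/- and 9.78% in Dspp-/-. A ratio of 2 genes within a library is free of the scaling between libraries. The ratio of Fgfr1 to Fgfr3 was 5.57 (5.29 to 5.86) in WT, 5.27 (4.93 to 5.63) for the heterozygous and 6.59 (6.16 to 7.06) for the null library, and that of Fgfr2 to Fgfr3 was 1.80 (1.70 to 1.90), 1.91 (1.77 to 2.05) and 2.49 (2.31 to 2.68). Both ratios were highest in Dspp-/-, where their intervals lay apart from those of the other two libraries, while WT and Dspp+/- overlapped. Fgfr1 to Fgfr2 was 3.10 (2.99 to 3.21) in WT, above 2.76 (2.64 to 2.89) and 2.65 (2.55 to 2.76) in the heterozygous and null libraries.

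**Figure D2:**
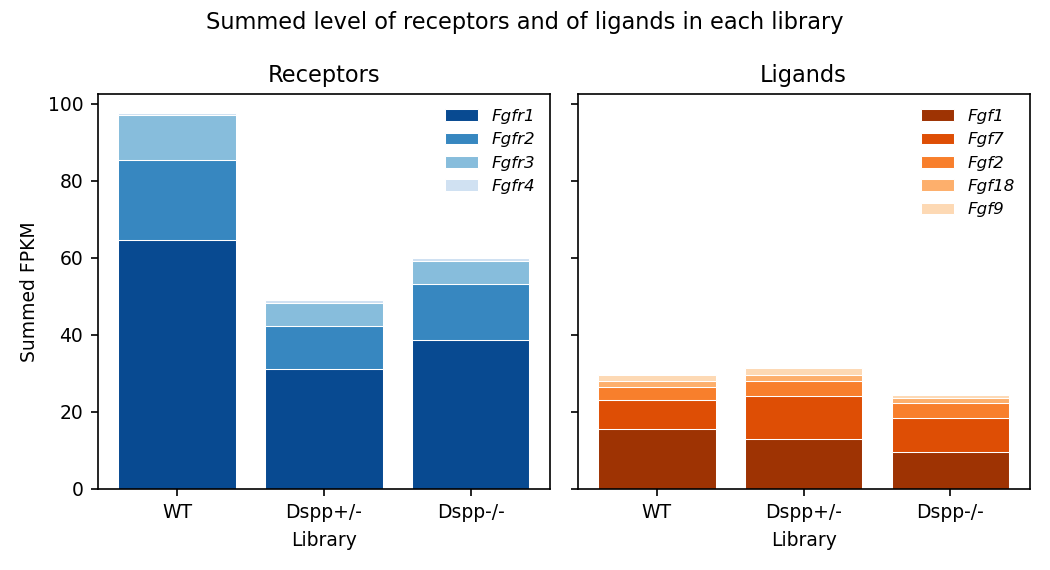
Summed FPKM of the receptors (left) and of the ligands (right) in each of the 3 libraries, stacked by gene from 0 on a common axis. The receptor sum was 97.6 FPKM in WT, 49.1 in the heterozygous and 60.0 in the null library, while the ligand sum lay between 24.3 and 31.3.

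Among the ligands, Fgf1 (ENSMUSG00000036585, chromosome 18, minus strand, 38971726 to 39062525), which can activate every FGF receptor, was the most abundant. It was at 15.6, 13.0 and 9.44 FPKM in WT, Dspp+/- and Dspp-/-, respectively, and so had its lowest value in Dspp-/-, unlike Fgfr1 and Fgfr2. The fold against WT was 0.832 (0.777 to 0.890) for the heterozygous and 0.604 (0.560 to 0.651) for the null library. The ratio of Dspp-/- to Dspp+/- was 0.726 (0.673 to 0.783).

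Fgf7 (ENSMUSG00000027208, chromosome 2, plus strand, 125876578 to 125933105), the keratinocyte growth factor made by mesenchymal cells for the epithelial form of Fgfr2, was higher in both mutants. It was at 7.48 FPKM in WT, 11.1 in the heterozygous and 8.98 in the null library, from 492, 850 and 649 fragments. The fold was 1.48 (1.32 to 1.66) and 1.20 (1.07 to 1.35) in the heterozygous and null libraries, with the heterozygous library again the farther from WT. The ratio of Fgfr2 to Fgf7 was 2.78 (2.54 to 3.06) in WT, 1.01 (0.939 to 1.10) for the heterozygous and 1.62 (1.49 to 1.77) for the null library, and that of Fgfr1 to Fgf7 was 8.63 (7.89 to 9.46), 2.80 (2.61 to 3.01) and 4.31 (3.97 to 4.67). In both ratios the intervals of the 3 libraries were apart.

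Fgf2 (ENSMUSG00000037225, chromosome 3, plus strand, 37402495 to 37464257), the basic FGF stored in bone and cartilage matrix, differed little. It was at 3.19, 3.81 and 3.76 FPKM in WT, Dspp+/- and Dspp-/-, respectively. The fold was 1.19 (1.05 to 1.35) and 1.18 (1.04 to 1.34), and the mutants' ratio was 0.986 (0.878 to 1.11). Exons of Nudt6 on the other strand cover 9.44% of the exon bases of Fgf2, and Nudt6 was at 1.68, 1.84 and 1.42 FPKM, while 3.76% lie in exons of Gm43439 on the same strand. Whether the library kept the strand is not given in the sources used here, so reads from such overlaps cannot be assigned.

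Fgf9 (ENSMUSG00000021974, chromosome 14, plus strand, 58308004 to 58350177) had its lowest value in Dspp-/-. It was at 1.39 FPKM in WT, 1.64 in the heterozygous and 0.764 in the null library, from 131, 180 and 79 fragments. The fold against WT was 1.18 (0.935 to 1.49) in Dspp+/-, which spans 1, and 0.549 (0.410 to 0.731) in Dspp-/-. The ratio of the mutants, 0.466 (0.353 to 0.610), was the farthest from 1 among the members.

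Fgf18 (ENSMUSG00000057967, chromosome 11, minus strand, 33067430 to 33097400), the ligand paired with Fgfr3 in growth cartilage, was counted from 42, 49 and 36 fragments. It was at 1.75, 1.75 and 1.36 FPKM in WT, Dspp+/- and Dspp-/-, respectively. The fold of 1.00 (0.649 to 1.55) and of 0.780 (0.485 to 1.25) both spanned 1, so a difference of Fgf18 was not detectable at this depth. The ratio of Fgfr3 to Fgf18 was 6.64 (4.89 to 9.24) in WT, 3.37 (2.53 to 4.59) and 4.30 (3.08 to 6.18) in the heterozygous and null libraries, with an interval in Dspp-/- that overlaps both of the others.

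Summed over the 5 ligands, the level was 29.4 FPKM in WT, 31.3 in the heterozygous and 24.3 in the null library. Fgf1 gave 53.1%, 41.6% and 38.9% of it in WT, Dspp+/- and Dspp-/-, while Fgf7 gave 25.4%, 35.4% and 36.9%. For every 100 FPKM of receptor there were 30.2 FPKM of ligand in WT, 63.7 in the heterozygous and 40.5 in the null library. In the order of all members by FPKM, Fgf1 stood behind Fgfr2 in WT and Dspp-/- and ahead of it in Dspp+/-, and Fgf7 stood ahead of Fgfr3 in both mutants but not in WT. Fgf18 and Fgf9 were neighbours in WT and Dspp+/-, at levels under 2 FPKM.

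**Figure D3:**
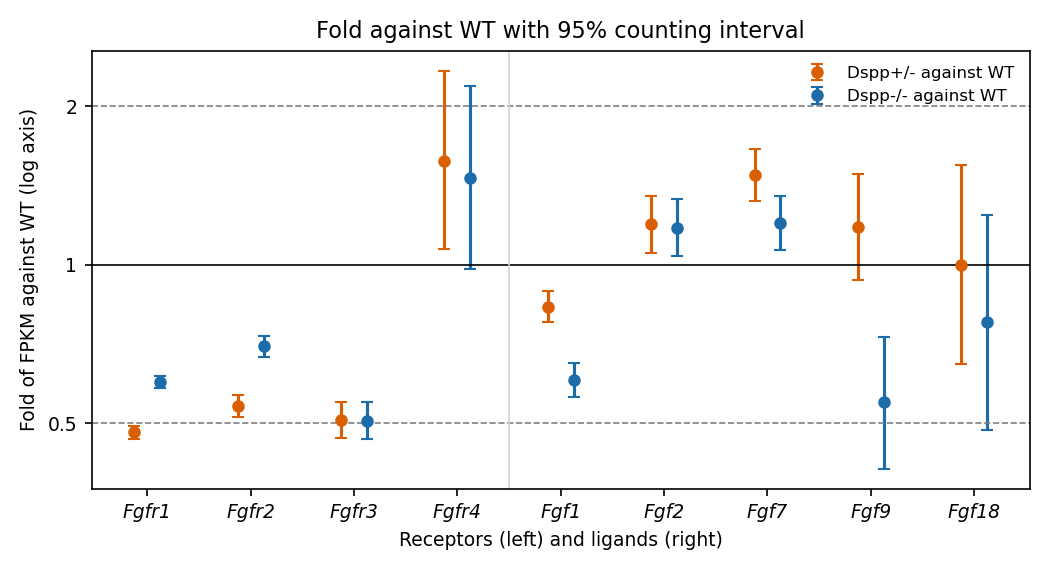
Fold of FPKM against WT (log axis) for each member in Dspp+/- and Dspp-/-, with bars for the 95% counting interval and dashed lines at a fold of 0.5 and 2. Fgfr1, Fgfr2 and Fgfr3 lie at 0.481 to 0.700, and Fgf7 lies at 1.48 and 1.20.

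Fgfr1, Fgfr2, Fgfr3, Fgf1, Fgf2, Fgf7, Fgf9 and Fgf18 passed the filter. Of these 8, 1 was at least 2-fold lower in Dspp+/-, where 2.86% of all genes compared were, and 0 were higher, against 4.88% of all genes. In Dspp-/- 0 were lower and 0 higher, against 1.37% and 4.05%, and between the mutants 0 were lower and 0 higher in Dspp-/-, against 0.798% and 0.852%. With so few members these counts do not set the FGF genes apart from the background. Counting intervals that leave out 1 were common at this depth, among 12710 compared genes with whole fragments. In Dspp+/- against WT the interval lay below 1 for 4 of the 8 members, against 28.4% of those genes, and above 1 for 2, against 39.3%. In Dspp-/- it lay below 1 for 5, against 33.6%, and above 1 for 2, against 34.0%. Between the mutants it lay below 1 in Dspp-/- for 3, Fgf1, Fgf7 and Fgf9, against 34.5%, and above 1 for 2, Fgfr1 and Fgfr2, against 25.4%. An interval apart from 1 is thus no mark of the FGF genes. The 1 lower member, Fgfr1, was no longer counted with a pseudocount of 5 FPKM, and Fgfr2 and Fgfr3 joined it when libraries were scaled to housekeeping genes.

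The median log2 ratio of the 8 members was -0.12 in Dspp+/- against WT and -0.46 in Dspp-/-, beside 0.058 and 0.0070 over all genes compared. In Dspp+/- the receptors Fgfr1, Fgfr2 and Fgfr3 all lay below the ligands, and in Dspp-/- Fgf1 lay below Fgfr2. The receptor median, over Fgfr1, Fgfr2 and Fgfr3, was -0.87 in Dspp+/- and -0.73 in Dspp-/-, and the ligand median was 0.14 and -0.22. Fgfr1 had a log2 ratio of -1.03 in Dspp+/-, below which lay 2.57% of all genes compared, and Fgfr3 had -0.88 in Dspp-/-, below which lay 2.31%. For Fgfr2, 4.54% of genes lay lower in Dspp+/- and 11.8% in Dspp-/-. At the other end, 86.1% of genes lay below Fgf7 in Dspp+/- and 73.4% in Dspp-/-. Between the mutants, 4.45% of genes lay below Fgf9, at a log2 ratio of -0.58, while 90.9% lay below Fgfr2.

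Of 17 other FGF ligands in the list, 12 were in the table and 2 passed the filter. Fgf13, an intracellular relative of the secreted FGFs, was at 3.79, 6.05 and 5.58 FPKM in WT, Dspp+/- and Dspp-/-, respectively, with a fold of 1.60 (1.39 to 1.84) and 1.47 (1.28 to 1.70). Fgf11, of the same intracellular group, was at 3.15, 2.28 and 2.29 FPKM, with a fold of 0.725 (0.585 to 0.897) and 0.727 (0.585 to 0.902). Their median log2 ratio was 0.11 in Dspp+/- and 0.062 in Dspp-/-. Of 3 co-receptor and decoy genes, Fgfrl1, a receptor without a kinase domain that is expressed in cartilage, was at 14.1, 11.9 and 11.4 FPKM, a fold of 0.847 (0.767 to 0.937) and 0.810 (0.731 to 0.897). The klotho co-receptors Kl and Klb stayed at or below 0.237 FPKM in every library. Fgfrl1 thus differed less from WT than Fgfr1, Fgfr2 and Fgfr3 did.

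Heparan sulfate proteoglycans hold FGF at the cell surface and in the matrix, and the list also held the enzymes that make and edit the sulfate chain. Of its 19 genes 17 passed, with a median log2 ratio of -0.53 in Dspp+/- and -0.35 in Dspp-/-. In Dspp+/- 15 of the 17 were below WT and 2 were at least 2-fold lower, and in Dspp-/- 16 were below WT and 1 was at least 2-fold lower. Of all genes compared, 2.86% and 1.37% were at least 2-fold lower in Dspp+/- and Dspp-/-. In Dspp+/-, 43.7% of them had a log2 ratio below that of Fgf18, 6.30e-05, which is close to no difference. In Dspp-/- the share of all genes below WT was not computed, and their median was 0.0070. The syndecan Sdc3 was lower past 2-fold in both, at 101 FPKM in WT, 36.1 in the heterozygous and 40.0 in the null library. Sdc1 was at 23.6, 7.79 and 12.5 FPKM, a fold of 0.330 (0.302 to 0.360) and 0.527 (0.488 to 0.569). Sdc4 was at 78.0, 41.9 and 40.1 FPKM, so that its mutant values were alike as those of Fgfr3 were. Gpc3 and Hs6st1 were the 2 genes above WT in Dspp+/-, and these names were taken after the values were seen.

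The genes that carry the signal inside the cell lay on both sides of WT. Of 18 adaptors and kinases 17 passed, and 7 were below WT and 10 above it in each mutant. In Dspp+/-, 43.7% of all genes compared lay below Fgf18, itself close to no difference. Of the 17, 0 were 2-fold lower or higher in either mutant. Of all genes compared, 2.86% were 2-fold lower and 4.88% higher in Dspp+/-, and 1.37% and 4.05% in Dspp-/-. With 17 genes, a count of 0 does not set the list apart. The median log2 ratio was 0.054 in Dspp+/- and 0.0036 in Dspp-/-, beside 0.058 and 0.0070 over all genes compared. Gab1, an adaptor docked behind Frs2, was at 15.1, 9.27 and 13.0 FPKM in WT, Dspp+/- and Dspp-/-, respectively, and Plcg1, the phospholipase that binds the activated receptor, was at 14.2, 9.23 and 9.48. Cbl, a ubiquitin ligase that removes receptors, was higher at 6.75, 10.9 and 11.6 FPKM, with a fold of 1.61 (1.52 to 1.71) and 1.72 (1.62 to 1.83).

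Feedback inhibitors and transcriptional targets are the usual readout of FGF signalling. Of 18 listed genes 17 were in the table and 16 passed, with 11 below WT in Dspp+/- and 10 in Dspp-/-. In Dspp+/-, 43.7% of all genes compared lay below Fgf18, itself close to no difference. The share of all genes below WT in Dspp-/- was not computed. Of the 16, 0 were past 2-fold in either direction. Of all genes compared, 2.86% were 2-fold lower and 4.88% higher in Dspp+/-, and 1.37% and 4.05% in Dspp-/-. With 16 genes, a count of 0 does not set the list apart. The median log2 ratio was -0.14 in Dspp+/- and -0.062 in Dspp-/-, beside 0.058 and 0.0070 over all genes compared. Etv5, an ETS factor induced by FGF, was at 7.91 FPKM in WT, 4.52 in the heterozygous and 5.05 in the null library, a fold of 0.571 (0.505 to 0.646) and 0.638 (0.565 to 0.720). Etv4, its close relative, was at 1.70, 0.832 and 1.20 FPKM, a fold of 0.489 (0.351 to 0.675) and 0.706 (0.523 to 0.949). Flrt2, a membrane protein that binds FGF receptors, was at 13.3, 8.50 and 12.4 FPKM. Outside the naming rule, and chosen after their values were seen, the widely used readouts Dusp6, at 14.9, 13.7 and 14.5 FPKM, and Spry1, at 16.1, 17.7 and 15.1 FPKM, were close to WT. Named in the same way, other genes of the list were higher, with Spry2 at a fold of 1.42 (1.19 to 1.69) and Il17rd at 1.45 (1.24 to 1.69) in Dspp+/-, and Egr1 at a log2 ratio of 0.54 (interval of the fold 1.38 to 1.63) in Dspp-/-.

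The receptors were read beside markers of cell types in the sampled tissue, and the levels of these markers differed between the libraries too. Of 15 chondrocyte markers compared, 10 were at least 2-fold lower in Dspp+/- and 8 in Dspp-/-, against 2.86% and 1.37% of all genes compared. The list's median log2 ratio was -1.99 and -1.02, and its summed level was 2657, 1161 and 1280 FPKM in WT, Dspp+/- and Dspp-/-, respectively. Col2a1, the collagen of cartilage, was at 761, 94.2 and 308 FPKM, whereas Chad was at 962, 643 and 523, and Matn1, a cartilage matrix protein, was at 0 in Dspp+/-, which allows up to 3 fragments, and at 2 and 3 fragments in WT and Dspp-/-. In Dspp+/- 10 of these 15 markers had a lower log2 ratio than Fgfr1 and 11 a lower one than Fgfr3, and in Dspp-/- 11 and 10 did. Osteoblast markers had a median of -1.67 and -0.88 over 14 genes, of which 13 lay below Fgfr1 in Dspp+/- and 9 in Dspp-/-. Their summed level was 21278, 5852 and 11709 FPKM, led by Col1a1, the collagen of bone, at 6675, 1719 and 3610. Like Fgfr1 and Fgfr2, both of these sums were lowest in Dspp+/-. The part of cartilage and bone markers' lower levels in the receptor values was not tested.

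The other marker lists spread on both sides of the receptors. Hypertrophic chondrocyte markers had a median of -1.56 in Dspp+/- and -0.82 in Dspp-/- over 6 genes, with a sum of 1135 FPKM in WT, 371 in the heterozygous and 734 in the null library. Osteocyte markers had -1.42 and -1.25 over 5 genes, with a sum of 893, 369 and 357 FPKM, and osteoclast markers had -1.25 and -0.58 over 10 genes, with a sum of 2288, 824 and 1343. Nearer to zero, tendon and fibrous layer markers had -0.48 and -0.26 over 10 genes and summed to 2694, 1527 and 1991 FPKM, and endothelial markers had 0.20 and 0.17 over 8 genes and summed to 155, 180 and 169. None of the 8 endothelial markers was below Fgfr1, Fgfr2 or Fgfr3 in either mutant. Adipocyte markers had 0.14 and 1.06 over 7 genes, with sums of 75.4, 81.7 and 152 FPKM, and skeletal muscle markers had 0.38 and -0.041 over 10 genes, with sums of 11959, 16453 and 13200. The muscle list was split in Dspp+/-, with 2 genes at least 2-fold lower and 1 higher, against 2.86% and 4.88% of all genes compared. Named after their values were seen, Myh4 was at 124, 18.2 and 111 FPKM and Myh2 at 342, 706 and 359. On the side of blood, erythroid markers had 2.32 and 2.20 and summed to 904, 3767 and 3645 FPKM, neutrophil markers had 1.96 and 2.58 and summed to 620, 2741 and 3645, and B cell markers had 1.36 and 1.18 over 9 genes and summed to 516, 1201 and 1104. Matn1 was the sole gene of the 12 marker lists at 0 in a library. Fgf7, higher in both mutants, moved in the same direction as the blood lists, and their part in its value was not tested.

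**Figure D4:**
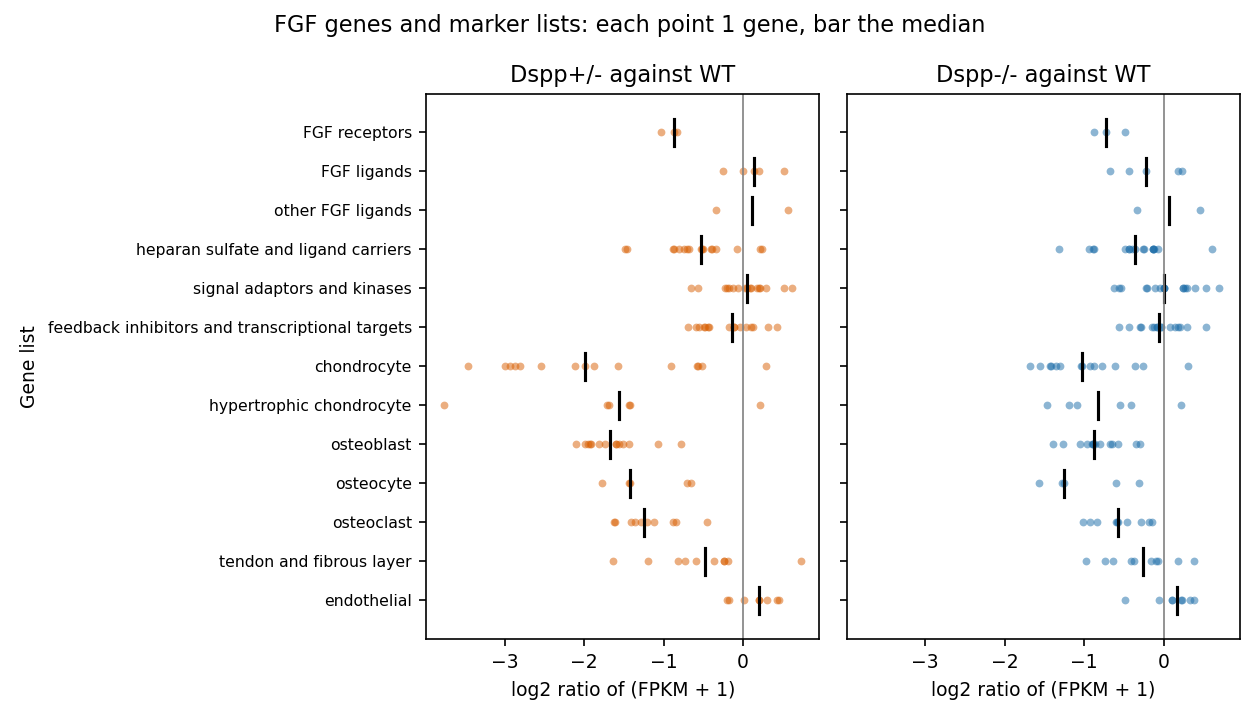
Log2 ratio of (FPKM + 1) against WT for genes whose mean reached 1 FPKM, 1 point per gene and a bar at the median of each list, for Dspp+/- (left) and Dspp-/- (right). The receptor median of -0.87 and -0.73 lies between that of the endothelial list, at 0.20 and 0.17, and that of the chondrocyte list, at -1.99 and -1.02.

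Genes of at least 5 FPKM were ranked by how near their pair of log2 ratios against WT lay to that of each member, a likeness that rests on 3 libraries and 7133 genes and was not tested. Nearest to Fgfr1 were Rab34 at a distance of 0.021, Zfp862-ps at 0.024 and Tgfb2 at 0.025 (log2 units). Tgfb2, a growth factor of skeletal tissue, was at 33.8, 16.2 and 20.4 FPKM in WT, Dspp+/- and Dspp-/-, respectively. Nearest to Fgfr2 were Tiam2 at 0.0076, Ubtd2 at 0.022 and Rtl8c at 0.029, and nearest to Fgfr3 were Irx5 at 0.0053, Mfsd12 at 0.011 and Ltbp3 at 0.015. Ltbp3, which holds latent TGF-beta in the matrix, was at 39.0 FPKM in WT, 20.7 in the heterozygous and 20.9 in the null library, alike in the mutants as Fgfr3 was. Tgfb2 and Ltbp3 were picked for description by no rule set in advance, and other genes lay nearer to Fgfr1 and Fgfr3. Within a distance of 0.1 lay 29 genes for Fgfr1, 45 for Fgfr2 and 27 for Fgfr3. For the ligands, this number was 62 for Fgf1, 124 for Fgf7, 50 for Fgf9, 283 for Fgf18 and 383 for Fgf2. The nearest were Tesk1, Fkbp8 and Gnas for Fgf1, Atp9a, Inppl1 and Rpl17-ps5 for Fgf9, Slc9a3r2, Hnrnpa1 and Rara for Fgf18, and Cops3, Metap1 and Sec24b for Fgf2.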

How the data were processed

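Poly(A)-selected RNA of mandibular condyles was sequenced in pairs of 150 bases. The authors deposited a table of 26970 genes with 1 value per genotype, although the labels mention triplicates, and each value was taken as that of 1 library. The deposited unit is unnamed, and the values were read as FPKM that the authors made from aligned fragments by dividing by gene length and depth. In support of that reading, value times merged exon length (GENCODE M21) came within 0.05 of whole fragments for 98.2% of the 26652 genes with a length. The fragments recovered gave Clopper-Pearson intervals, which say nothing of the spread between mice. The submitters' processing notes name FastQC 0.11.5, HISAT2 2.1.0, StringTie 1.3.3b and DESeq 1.28.0, and the build hg38, although the samples are mouse. The annotation and filters are not given in the sources used here. Of the table's genes, 574 had the start and end of GENCODE M21 and 0 members did.

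Ratios were taken of FPKM + 1 where the mean reached 1 FPKM. No p-value was computed, as single libraries cannot enter the Kruskal-Wallis test of the study. All 9 members are named. From each of 5 FGF pathway lists the 3 genes with the largest log2 ratio in Dspp+/-, any other gene past 2-fold and every other ligand past the filter are named, from each of 12 marker lists the most abundant where it is described, and 3 nearest genes per member, except for Fgf7, whose nearest genes are not reported here. The members and lists were chosen with earlier results of these data known. In all, 10 alternatives in pseudocount, filter, scaling and threshold were tried. Fragment recovery was tested on simulated data. Tables were made in pandas 2.3.3 and numpy 2.4.6 under Python 3.11.15, intervals in scipy 1.17.1 and plots in matplotlib 3.10.9. Dspp was left out, and genotypes were not checked against it.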

Additional observations from a re-analysis of the deposited data

Results flagged for a closer look

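Fgf9 lay on opposite sides of WT in the mutants, with a fold of 1.18 in Dspp+/- and of 0.549 in Dspp-/-, from 131, 180 and 79 fragments in WT, Dspp+/- and Dspp-/-. The difference was not tested, as each genotype had 1 library, and the counting interval of the fold in Dspp+/- spans 1.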

How the results depend on the processing

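With 1 library per genotype no replicate could be left out, counting intervals miss the spread between mice, and Fgfr4, Fgf9 and Fgf18 rest on 36 to 180 fragments. The member median kept its side of zero in Dspp-/- and, except with no filter, in Dspp+/-, where it was 6.30e-05. A mean of at least 5 FPKM, which leaves Fgfr1, Fgfr2, Fgfr3, Fgf1 and Fgf7, moved it from -0.12 to -0.84 in Dspp+/- and from -0.46 to -0.67 in Dspp-/-, where a pseudocount of 0.1 gave -0.62 and one of 5 gave -0.27. The 1 member counted as lower in Dspp+/- became 0 with a pseudocount of 5 or at 4-fold, and 3 at 1.5-fold, with housekeeping scaling, or when libraries were scaled after leaving out muscle, immunoglobulin and hemoglobin genes. In Dspp-/- the 0 lower members became 3 at 1.5-fold and 1 with the latter scaling, and between the mutants 1 with a pseudocount of 0.1. Housekeeping scaling shifted the median of all genes by -0.20 in Dspp+/- and -0.064 in Dspp-/-, and the scaling that leaves out muscle, immunoglobulin and hemoglobin genes by -0.19 and -0.17, so the receptors, at -1.23 to -0.61 in Dspp+/- over all settings, are read relative to that shift. Neither a pseudocount nor a filter can change the sign of a single gene's log2 ratio, so only the 4 scalings could. Under these, the ratios of Fgfr1, Fgfr2, Fgfr3, Fgf1, Fgf2, Fgf7 and Fgf9 against WT kept their sign. With housekeeping scaling, Fgf2 and Fgf9 were near zero in Dspp+/-, at 0.040 and 0.019. The ratio of Fgf18 in Dspp+/- changed its sign in 3 of the 4 scalings. Between the mutants, the near-zero ratios of Fgfr3 and Fgf2 changed sign in all 4 scalings. A change of filter cannot alter the ratio of a single gene at all, yet the filter settings are included in the counts of member ratios below. Over all settings, 144 member ratios stayed within counting error and 39 did not, and 387 list medians kept their sign and 21 changed it. The cause was not tested.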

Other observations

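Several FGF ligands under the filter, named after their values were seen, had more fragments in the mutant libraries. Fgf10, a mesenchymal ligand of the epithelial form of Fgfr2 as Fgf7 is, had 29, 70 and 63 fragments in WT, Dspp+/- and Dspp-/-, respectively, a fold of 2.07 (1.32 to 3.31) and 1.98 (1.25 to 3.18). Fgf23, the phosphate hormone of osteocytes, had 4, 17 and 13 fragments, a fold of 3.64 (1.19 to 14.9) for the heterozygous and 2.96 (0.913 to 12.4) for the null library, while the summed level of the osteocyte markers was 893, 369 and 357 FPKM. Fgf3 had 0, 16 and 15 fragments. Fgf14, of the same intracellular group as Fgf11 and Fgf13, stood at 50, 49 and 97 fragments, and Fgf6 at 53, 90 and 54. Fgf5 had 2, 19 and 6 fragments, Fgf12 had 0, 2 and 1, and Fgf16 had 5, 6 and 9. Fgf17 and Fgf22 each had 4, 3 and 6. Not all low FGF genes were thus higher in both mutants.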
